A study of Zea mays with 36 samples.

Results

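The gene grp1 of maize was followed through every probe that stands for it on 2 spotted arrays of shoot apical meristem RNA. A probe was chosen by its name, when the platform annotation gave it the symbol or synonym grp1, Entrez gene 542725. This is a protein-coding gene whose current symbol is LOC542725. That rule found 33 of 35200 probes, 28 of 19200 on the array design named SAM1 and 5 of 16000 on the design named SAM3. The gene itself was selected on its measured SAM1 ratios and intensities, a low ratio at one bright probe among many probes, so its SAM1 values are given as a description and without a test.

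The symbol grp stands for glycine-rich protein. Plant glycine-rich proteins fall into several classes, among them structural proteins of the cell wall and RNA-binding proteins that join an RNA recognition motif to a glycine-rich tail. Several of the RNA-binding class are abundant in growing tissue and respond to abscisic acid, cold or water stress. The annotation used here gives no class for grp1, so none is assumed below.

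The study set the rgd2-R mutant beside meristems that the labels call non-mutant. The mutated gene, ragged seedling2, is known to encode an ARGONAUTE7-like protein that acts in the making of trans-acting small interfering RNAs and in the widening of maize leaves. The rgd2-R allele had been crossed into the inbred line Mo17 for 5 generations, both genotypes grew under the same controlled condition to 14 days after germination, and meristem cells were cut out by laser microdissection. Their RNA was amplified in 2 rounds and hybridised as pairs, with both genotypes on every array.

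Each design held 6 biological replicates with 3 readings apiece (low, mid and high), and the 36 samples thus come from 12 hybridisations. Cy3 marked rgd2-R in replicates 1 to 3 and Cy5 marked it in replicates 4 to 6. The labels do not say whether a replicate is 1 plant or a pool, so the errors below concern these replicates and not a known number of plants. Ratios set rgd2-R over non-mutant on the log2 scale after normexp background correction and loess, averaged over the 3 readings. SE is the standard error of the limma model. That model has a dye term, so a difference between replicates 1 to 3 and replicates 4 to 6 is left out of SE. SD is taken over the 6 replicate values and includes it. A negative ratio is lower in rgd2-R. Brightness is the mean log2 intensity of both dyes; it describes a spot and does not rank transcripts of different probes. The median signal of a reading ran from 301 to 1947.5 in Cy3 and from 101 to 554 in Cy5 on SAM1, and from 143 to 1847 and from 46.5 to 1002 on SAM3. In the authors' deposited ratios the readings of a SAM1 replicate correlated at 0.42 to 0.89, over spots with signal clear of background in both dyes. The 6 SAM1 replicates correlated at -0.18 to 0.39 over all spots. The meristem marker kn1, a homeobox gene of indeterminate cells, was brighter than 76% of SAM1 spots and gave -0.12 (SE 0.08) there and -0.06 (SE 0.07) on SAM3.

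Averaged over its 28 SAM1 probes, grp1 was nearly level between the genotypes. The gene mean was 0.09, -0.04 and -0.10 in replicates 1 to 3 and -0.23, 0.16 and 0.02 in replicates 4 to 6. It lay below 0 in 3 of 6 replicates and averaged -0.02 (SE 0.07; SD 0.14, n = 6), a value smaller than the spread between replicates. In RNA pooled from many cells, a change in the number of cells that make a transcript and a change in its amount per cell cannot be told apart. The sign of the mean turned with the processing, from -0.07 with median centring in place of loess to 0.04 with the median over probes in place of the mean.

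That level mean covered probes that ran in opposite directions. Of the 28 probes, 13 gave a mean ratio below 0 and 15 above 0, while 48.8% of all SAM1 spots lay below 0 and 51.2% above. The ratios ran from -0.95 to 0.33, with a median of 0.02 and an SD of 0.28 over probes. A probe was called deviating when its ratio lay more than 3 scaled median absolute deviations from that median, which set the limits at -0.54 and 0.59. Below the lower limit lay 2 probes, 13699 and 15880, and 0 probes lay above the upper one. Over all SAM1 spots 0.526% lay below the same lower limit. The next probe inside it was 8426 at -0.41, against -0.57 for 15880 just outside. Without the 2 deviating probes the mean of the other 26 was 0.04. Only probe 13699 was lower in rgd2-R in all 6 replicates, as were 3.83% of all spots, and only probe 1395 was higher in all 6, as were 3.11% of all spots.

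**Figure D1:**
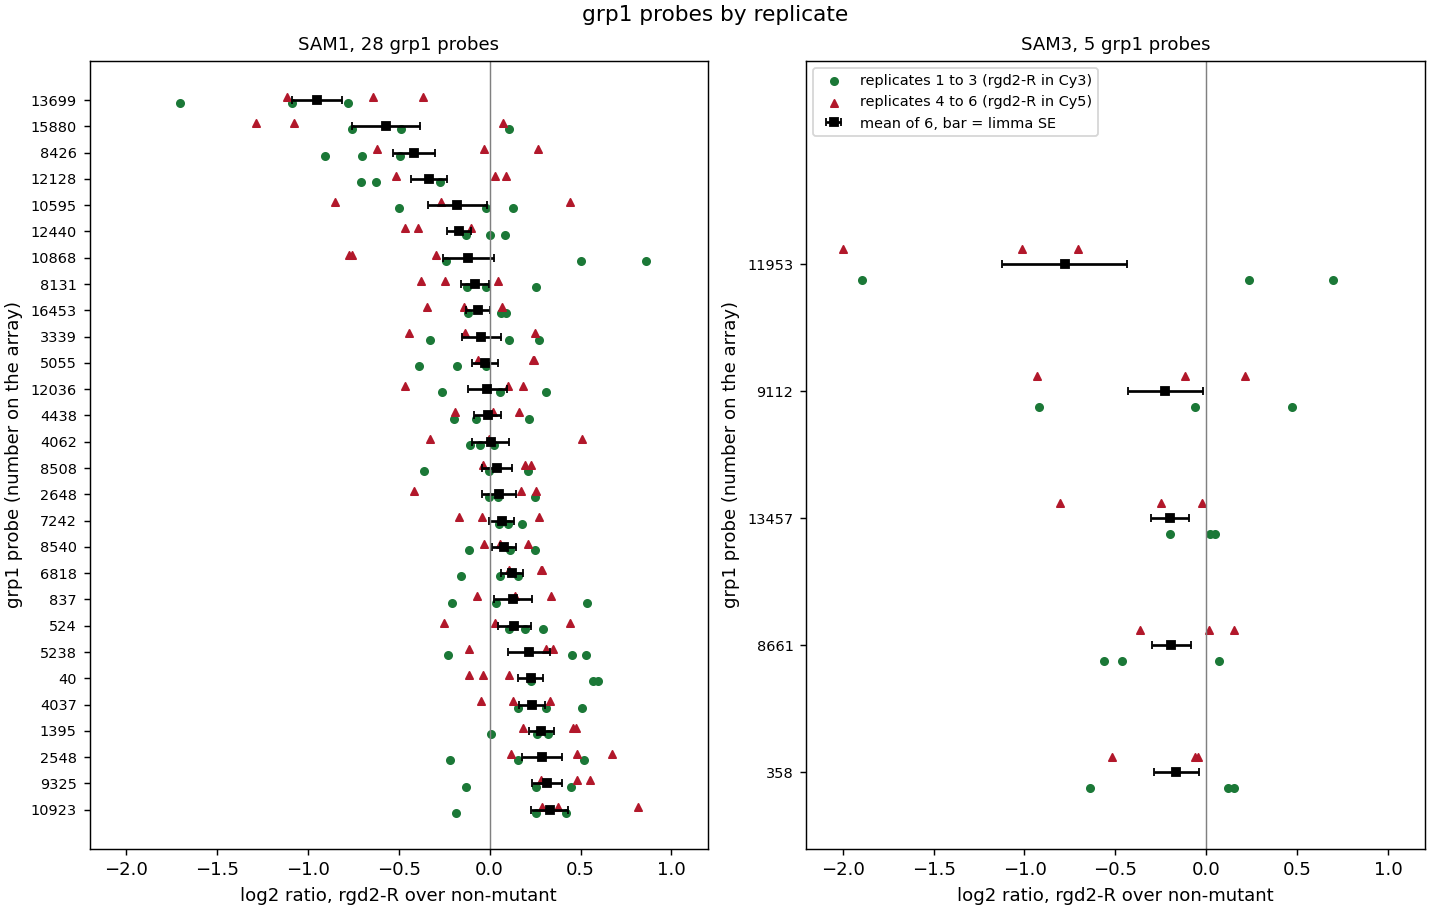
Log2 ratio of rgd2-R over non-mutant for each grp1 probe on SAM1 (left, 28 probes) and SAM3 (right, 5 probes), ordered from lowest to highest mean. Circles are replicates 1 to 3, triangles replicates 4 to 6, and squares the mean of 6 with its limma SE. Probe 13699 has all 6 points left of 0, most other SAM1 probes straddle 0, and all 5 SAM3 means lie left of 0.

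Probe 13699 gave the lowest ratio. Its replicates read -1.09, -0.78 and -1.70 with rgd2-R in Cy3 and -1.11, -0.36 and -0.64 with rgd2-R in Cy5. All 6 values were below 0 in both dye orientations, and the mean of -0.95 (SE 0.14; SD 0.46) is a signal 1.93-fold lower in rgd2-R. The brightness averaged 13.46 ± 0.86 in rgd2-R and 14.41 ± 0.75 in non-mutant meristems (SD, n = 6 each). In signal above background, averaged over readings, the replicate median was 10175 (5021 to 37569) in rgd2-R and 26099 (12759 to 49446) in non-mutant. Those ranges overlap, since signal between hybridisations varied more than the ratio within one.

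Probe 15880 gave the second lowest ratio but was uneven. It read -0.48, 0.10 and -0.76 in replicates 1 to 3 and -1.28, 0.08 and -1.08 in replicates 4 to 6. In 4 replicates it was clearly below 0 and in replicates 2 and 5 it sat just above. The mean was -0.57 (SE 0.19; SD 0.58), and the brightness averaged 12.28 ± 0.81 in rgd2-R and 12.85 ± 0.92 in non-mutant (SD, n = 6 each).

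Probes 8426 and 12128 were low together. Probe 8426 read -0.49, -0.70, -0.91, -0.62, -0.03 and 0.27 in replicates 1 to 6 and averaged -0.41 (SE 0.12; SD 0.44). Probe 12128 read -0.27, -0.63, -0.71, -0.52, 0.03 and 0.09 and averaged -0.33 (SE 0.10; SD 0.34). Replicates 1 to 4 were below 0 for both probes and replicates 5 and 6 near or above it, and over the 6 replicates the probes correlated at 0.97. Both also followed probe 13699, at 0.78 for 8426 and 0.76 for 12128. These correlations include readings near the scanner's ceiling, described below. In replicate 6 these were all 3 readings of 8426 and 12128 and 2 of 3 for 13699. Probe 15880 did not run with the pair, with correlations of -0.05 with 8426, 0.03 with 12128 and 0.43 with 13699.

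The probes with low ratios were among the brightest. By mean brightness 8426 was 15th, 12128 was 18th, 13699 was 82nd and 15880 was 624th of the 19200 SAM1 spots. In the non-mutant channel alone they were 9th, 11th, 17th and 459th, while probes 4062 and 16453 were 13642nd and 14695th. The gene was selected with its SAM1 intensities known, so nothing is read from these ranks. The 28 probes spanned 8.03 to 14.45 in log2 brightness, around an array median of 8.80. Both ends are limits of the measurement, since the top probe, 8426, was partly saturated and the bottom probe, 16453, was near background. In all, 7 probes fell in the brightest 5% of spots, 9 in the brightest 10% and 2 in the dimmer part below the median.

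All 3 grp1 probes in the brightest 1% of spots were below 0, and 6 of the 7 in the brightest 5%. Of the 21 dimmer probes, 7 were below 0 and 14 above, within -0.18 to 0.33. Of all spots in the brightest 1% (192 spots) and 5% (960 spots), 43.2% and 46.4% were below 0, with medians of 0.04 and 0.03. Their 5th percentiles were -0.33 and -0.34. Loess centres the ratios of all spots along brightness, so medians near 0 follow from the processing and are a description only. Since the gene was selected on a low ratio at a bright probe, nothing is read from its place among spots of like brightness. Over the 28 probes ratio and brightness correlated at -0.58 (Spearman -0.36), a description over spots that share RNA, dye and target.

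Brightness did not sort the probes completely. Probe 8131, 452nd in brightness and thus brighter than 15880, gave -0.08 (SE 0.08), from -0.38 to 0.26 over replicates. Probe 12036, 928th, gave -0.01 (SE 0.11). Probe 5238, 861st, gave 0.22 (SE 0.11), from -0.23 to 0.53. These 3 bright probes straddled 0 over replicates. The dimmest probe, 16453, gave -0.06 (SE 0.07) at a brightness of 8.03, near the floor of the array.

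**Figure D2:**
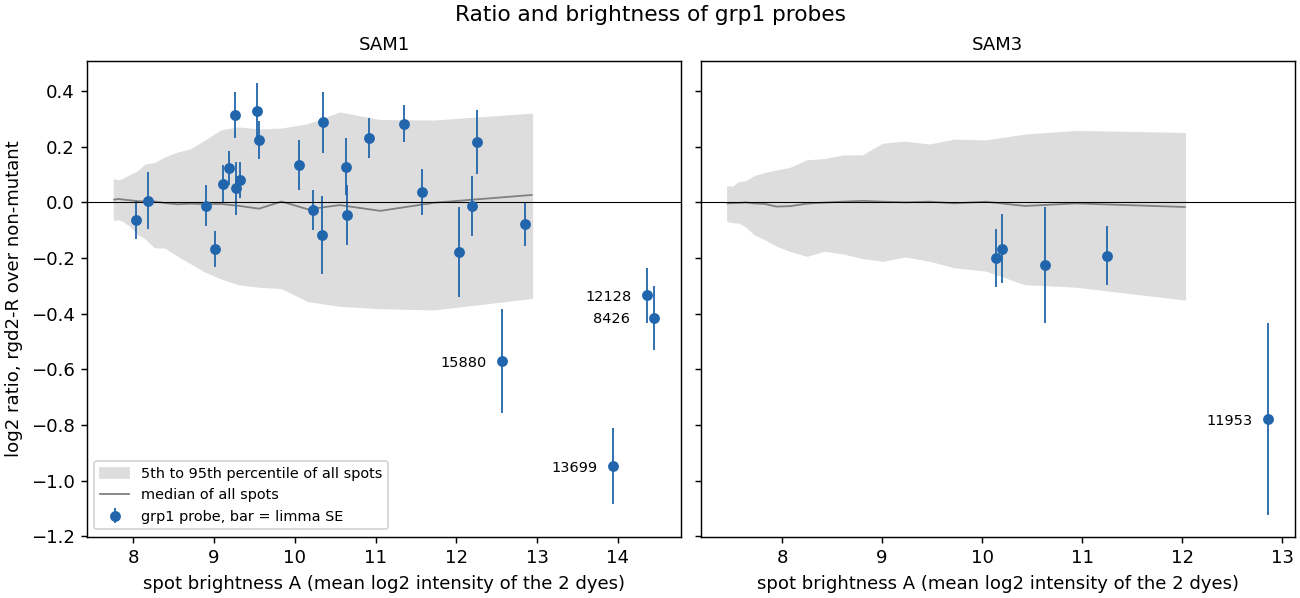
Mean log2 ratio of rgd2-R over non-mutant against spot brightness (mean log2 intensity of the 2 dyes) for the grp1 probes, with limma SE as bars, on SAM1 (left) and SAM3 (right). The grey band holds the 5th to 95th percentile of all spots in 20 bins of equal size and the grey line their median. Probes 13699, 15880, 8426 and 12128 on SAM1 and 11953 on SAM3 lie below 0 at the bright end. Loess holds the median of all spots near 0 there.

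The brightest spots came near the ceiling of the scanner. A reading was counted as saturated when the signal of either dye reached 60000, and 3 of the 28 SAM1 probes had such readings, which were 8426 in 6 of 18 readings, 12128 in 7 and 13699 in 4. Replicate 6 held the clearest case. For probe 8426 its rgd2-R signal above background was 12020, 28196 and 37416 in the low, mid and high readings, against 59420, 58479 and 62350 in non-mutant. The rgd2-R signal grew with the reading while the non-mutant signal stood still, and the ratio was -0.31, 0.22 and 0.89 in that order. Probe 12128 in replicate 6 gave -0.46, 0.04 and 0.69, and probe 13699 gave -1.11, -0.74 and -0.07. In the low reading, which was itself saturated for 8426 and 12128, all 3 probes were below 0 in replicate 6 as well.

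Over all replicates the ratio of 13699 was -1.08 in low, -0.97 in mid and -0.80 in high readings. It was -0.50, -0.44 and -0.31 for 8426, and -0.44, -0.33 and -0.23 for 12128. With the saturated readings left out the ratios were -1.06 for 13699, -0.49 for 8426 over the 5 replicates that still had a reading, and -0.39 for 12128 over 4. All 3 were still below 0. Leaving out replicate 6 alone gave -0.51 for 8426 and -0.39 for 12128, so the removal of saturated readings and of whole replicates cannot be told apart for those 2 probes. Probe 15880 had 0 saturated readings and gave -0.57 in the low, mid and high readings alike.

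**Figure D3:**
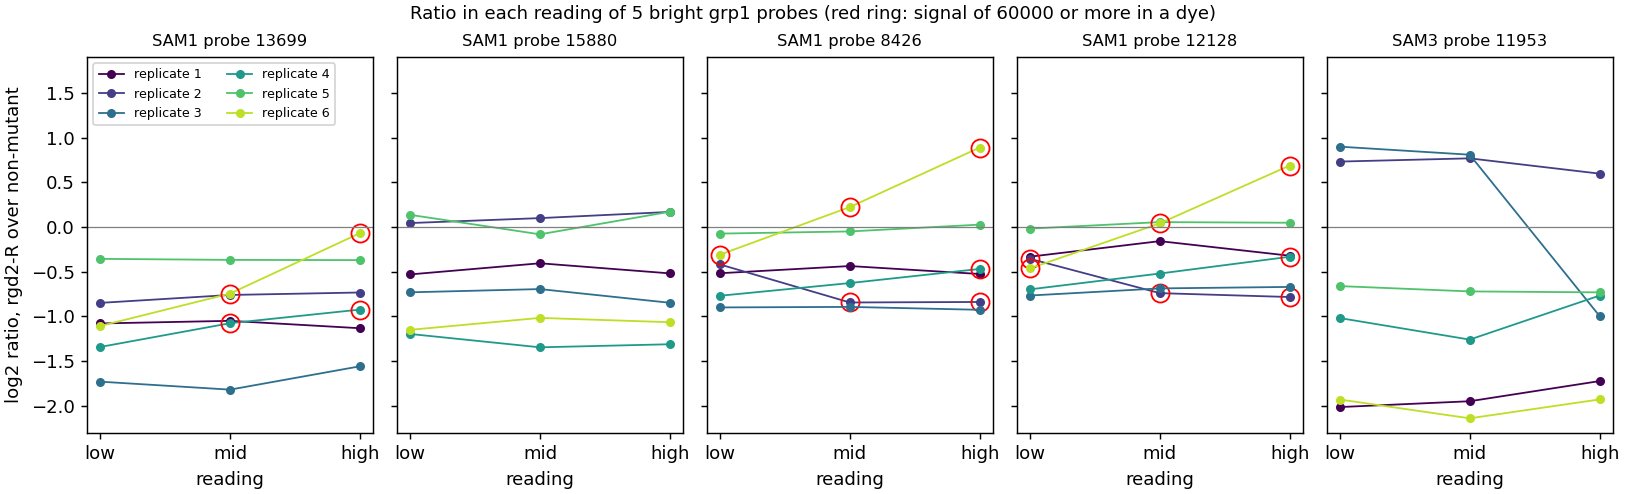
Log2 ratio of rgd2-R over non-mutant in the low, mid and high reading of each replicate for SAM1 probes 13699, 15880, 8426 and 12128 and SAM3 probe 11953, 1 line per replicate. Red rings mark readings with a signal of 60000 or more in a dye. Replicate 6 of the 3 brightest SAM1 probes climbs as the rings appear, and replicate 3 of probe 11953 changes sign between its mid and high readings.

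At the other end 7 probes had ratios above 0.20, up to 0.33. Probe 10923 averaged 0.33 (SE 0.10), probe 9325 averaged 0.31 (SE 0.08) and probe 2548 averaged 0.29 (SE 0.11), each higher in rgd2-R in 5 of 6 replicates and below 0 in replicate 2. Those 3 moved together, with correlations of 0.87 to 0.97 between them. Probe 1395 read 0.26, 0.01, 0.32, 0.46, 0.18 and 0.47, averaged 0.28 (SE 0.07), and was the one probe above 0 throughout. None of these 4 was in the brightest 10% of spots. Over the 6 replicates 1395 ran against 15880, with a correlation of -0.94.

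How far the probes rose and fell together was measured by each probe's correlation, over the 6 replicates, with the mean of the other 27. It averaged 0.41, was above 0.5 for 12 probes and below 0 for 3, and moved to 0.68 with median centring in place of loess. Probe 2648 followed the others best, at 0.95, with values of 0.25, 0.05, 0.00, -0.41, 0.26 and 0.17 and a ratio of 0.05 (SE 0.09). The 3 below 0 were 4062 at -0.72, 1395 at -0.43 and 40 at -0.04. For probe 40 this is near 0, and Spearman's correlation was 0.09. Probe 4062 was dim, at a brightness of 8.18. Pairs of grp1 probes correlated at 0.19 on average, from -0.94 to 0.98 over 378 pairs, with 118 pairs above 0.5 and 128 below 0, against 0.0008 for pairs of all spots. The deviating probes were not those that failed to follow the rest: 13699 followed it at 0.51 and 15880 at 0.54, while 4062 and 40, which did not, had ratios of 0.01 and 0.23.

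Dye orientation separated some probes. For 9 of the 28 the mean of replicates 1 to 3 and that of replicates 4 to 6 had opposite signs, all with overall ratios between -0.12 and 0.23. Probe 10868 differed most, with 0.37 while rgd2-R was in Cy3 and -0.61 while it was in Cy5. Its overall ratio was -0.12, with an SD of 0.67 and an SE of 0.14 that leaves this difference out. Probe 13699 gave -1.19 and -0.71 in the same order, probe 15880 -0.38 and -0.76, probe 8426 -0.70 and -0.13, and probe 12128 -0.53 and -0.13. The 4 low probes thus had means below 0 in both orientations. For 8426 and 12128 the mean with rgd2-R in Cy5 rested on replicate 4, at -0.62 and -0.52. Their replicates 5 and 6 lay near or above 0. These 4 probes were picked for a low overall ratio, so their shared sign is a description. Dye and replicate set cannot be told apart in these numbers, since each set had its own 3 hybridisations.

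The annotation ties each probe to 1 or 2 expressed sequence tags, short reads of cloned cDNA. The 17 probes with 1 tag included the 7 lowest ratios and gave 11 below 0, with a median of -0.05. The 11 probes with 2 tags gave 2 below 0, with a median of 0.14, and ran from -0.08 to 0.33. The tags of the 17 probes whose GenBank entry begins with CB ran from -0.41 to 0.23, those of the 6 that begin with CD from -0.18 to 0.33, and those of the 3 that begin with DV from -0.95 to -0.03. Probe 15880 was the only one with a tag of the AI series. These groupings were chosen after the values were seen. Tag and probe sequences were not used here, so whether every probe matches the grp1 transcript, or a related gene, was not tested.

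Few genes on SAM1 had probes as scattered as those of grp1. The gene was selected on a low ratio at a bright SAM1 probe, which in itself widens this scatter. Its rank on SAM1 is therefore a description from which nothing is read. Of the 20 genes with 10 or more probes, grp1 was second in the SD of its probe ratios at 0.28. It stood beside EF1-A, an elongation factor of translation, at 0.28 over 24 probes, and the next gene, TCTP, had 0.16 over 16. The other 17 genes had 0.05 to 0.14. The spread of brightness over probes did not set grp1 apart in the same way, since 4 of the 20 genes varied more, among them tua4, an alpha tubulin gene, whose 12 probes ran from -0.21 to 0.03. MNB1b, a high mobility group chromatin protein with 230 probes, had an SD of 0.08, with 220 probes below 0. The mean correlation between probes of one gene was 0.19 for grp1, number 5 of the 20 counted from the lowest, and 0.41 for EF1-A.

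**Figure D4:**
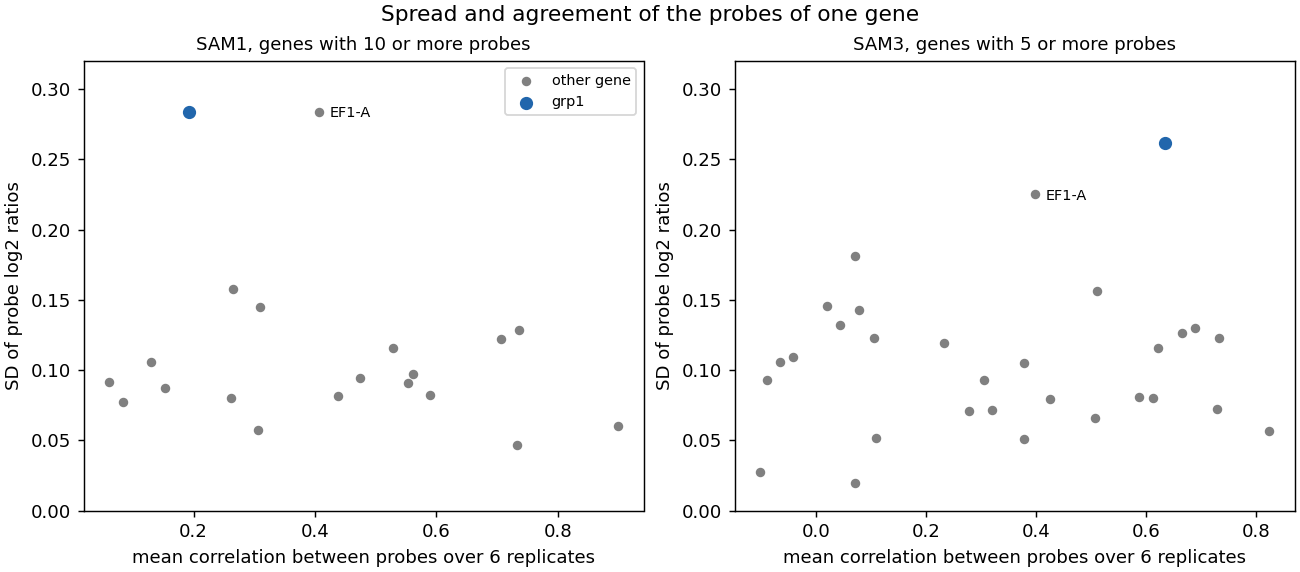
SD of the probe log2 ratios (rgd2-R over non-mutant) against the mean correlation between probes over the 6 replicates, 1 point per gene, for the 20 genes with 10 or more probes on SAM1 (left) and the 30 genes with 5 or more on SAM3 (right). The blue point is grp1, at an SD of 0.28 on SAM1 and 0.26 on SAM3, and EF1-A is the one other gene above 0.20 on either array. The gene grp1 was selected on its SAM1 ratios, so its place in the left panel is a description.

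The genes whose mean ratio ran most like the grp1 mean over the 6 SAM1 replicates were taken from 582 genes, among which the median correlation was -0.04. They were MNB1b at 0.96, with a ratio of -0.21 (SE 0.07), abcf1, an ABC transporter family gene, at 0.94, with -0.24 (SE 0.06), prf1 at 0.90, with 0.02 (SE 0.06), eif5a, a translation factor, at 0.88, with -0.09 (SE 0.06), and nfc101, a chromatin assembly factor, at 0.86, with -0.09 (SE 0.06). In replicate 4, where the grp1 mean was lowest at -0.23, all 5 were below 0, from -0.41 for MNB1b to -0.11 for prf1. In replicate 5, where grp1 was highest at 0.16, abcf1 was at -0.12 and prf1 at 0.19. By the same measure the 5 genes most like grp1 on SAM3, of 597, were others: Sod4A at 0.99, LOC541880 and cat1 at 0.98, HRGP at 0.95 and ss2 at 0.95. They fall outside the naming rule, which used SAM1, and were named after their values were seen. All these correlations rest on 6 values from shared hybridisations and are a description. Other glycine-rich and RNA-binding genes could be looked for by symbol only, since the gene table used here gives no descriptions, and that search returned grp1 alone, which says nothing of whether the arrays carry such genes. The list of abscisic acid and desiccation genes held 1 gene, dhn2, a dehydrin, with -0.14 (SE 0.06) on SAM1 and -0.02 (SE 0.23) on SAM3.

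On SAM3 the 5 grp1 probes were all lower in rgd2-R on average, and 0 of 5 passed a limma adjusted p of 0.05, as did 0% of all 16000 spots. The gene mean read -0.82, 0.05 and 0.19 in replicates 1 to 3 and -0.28, -0.09 and -0.92 in replicates 4 to 6. The replicate 3 value averages readings that ran in opposite directions, as set out below, so its sign is not settled. With the readings as labelled, the gene mean lay below 0 in 4 of 6 replicates, most deeply in replicates 1 and 6. It averaged -0.31 (SE 0.16, SD 0.46, limma adjusted p = 0.843). That difference is smaller than the spread between replicates. Without replicate 1 it was -0.16, and without replicate 6 it was -0.19. All spots below 0 made up 51.4% of SAM3, and the 5 probes share 1 gene and correlated at 0.64 between pairs, so their common sign is not 5 separate observations.

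Probe 11953 was both the brightest and the lowest of the 5. It read -1.89, 0.70 and 0.24 in replicates 1 to 3 and -1.01, -0.70 and -2.0 in replicates 4 to 6. With the readings of replicate 3 as labelled, 4 of the 6 values lay far below 0 and those of replicates 2 and 3 above it. The mean was -0.78 (SE 0.34; SD 1.1; limma adjusted p = 0.77), or -0.39 without replicate 1. The probe was 66th in brightness of 16000 spots and 29th in the non-mutant channel, at 12.47 ± 1.27 in rgd2-R and 13.24 ± 1.15 in non-mutant (SD, n = 6 each), with 0 saturated readings. The other probes lay between 10.14 and 11.25 in brightness and gave -0.22 for 9112 (limma adjusted p = 0.94), -0.20 for 13457 (limma adjusted p = 0.83), -0.19 for 8661 (limma adjusted p = 0.84) and -0.17 for 358 (limma adjusted p = 0.915). Single replicates weighed on these 4. Without replicate 1, 9112 was -0.04 and 358 was -0.04. Without replicate 6, 9112 was -0.06, 358 was -0.09, 13457 was -0.09 and 8661 was -0.12. Without replicate 3, 9112 was -0.39 and 8661 was -0.29, and without replicate 5, 9112 was -0.35. No grp1 probe of SAM3 was lower in all 6 replicates, which 1.61% of spots were. Of the 160 spots in the brightest 1% of SAM3, 40.6% were below 0.

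With the main processing and replicate 3 as labelled, the probes of SAM3 followed one another more closely than those of SAM1. Each probe correlated with the mean of the others at 0.76 on average, from 0.35 for 8661 to 0.95 for 358. With the low and mid readings of replicate 3 turned round, 8661 was at 0.14. Over the settings run the average was 0.62 to 0.84 on SAM3 and 0.30 to 0.68 on SAM1, and these ranges overlap. The SD of the SAM3 grp1 ratios, 0.26, was the largest of the 30 genes with 5 or more probes on SAM3, ahead of EF1-A at 0.23. It rests on probe 11953. Without 11953 the other 4 probes lay within -0.22 to -0.17.

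The direction of replicate 3 on SAM3 was not settled by the files. In the authors' deposited ratios its low and high readings correlated at -0.93 over 8194 spots with signal clear of background in both dyes. Its mid and high readings correlated at -0.93 (9915 spots), whereas low and mid correlated at 0.93 (8124 spots). In the low and mid readings the median Cy3 signal, labelled rgd2-R, was below that of Cy5, at 143 against 375 and 287 against 505.5. In the high reading it was 1243.5 against 406, and Cy3 was also above Cy5 in every other reading of both arrays. The SAM3 values above average the 3 readings as labelled. Which reading was exchanged was not tested. Probe 11953 read 0.90 in low, 0.81 in mid and -1.0 in high readings of that replicate. With its low and mid readings turned round, replicate 3 gave -0.90 for 11953, -1.40 for 9112 and -0.48 for 358. It gave -0.35 for 13457 and -0.18 for 8661. Replicates 1 and 3 correlated at -0.54 and replicates 1 and 2 at -0.24 over all spots. With the low and mid readings of replicate 3 turned round, 11953 averaged -0.97 (limma adjusted p = 0.664) and the gene mean was -0.45 (limma adjusted p = 0.657). With the high reading turned instead, they were -0.67 (limma adjusted p = 0.979) and -0.23 (limma adjusted p = 0.979). With replicate 2 turned as well as the low and mid readings of replicate 3, they were -1.20 (limma adjusted p = 0.193) and -0.47 (limma adjusted p = 0.228). With replicates 2 and 3 left out they were -1.57 (limma adjusted p = 0.177) and -0.63 (limma adjusted p = 0.291). In each of these settings all 5 probes stayed below 0 on average and none passed the threshold.

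Markers of cell types were read beside these values. Over all gene means and other spots, 9243 of 17983 were above 0 on SAM1 and 7481 of 15439 on SAM3. Counts over so few genes are a description beside those shares. Meristem genes were above 0 in 1 of 2 on SAM1, with a median ratio of 0.02, and in 3 of 4 on SAM3, with 0.01. On SAM1, leaf primordium genes were above 0 in 5 of 5, with a median ratio of 0.34 and a list mean of -0.23 to 1.65 over replicates. Green leaf and plastid genes were above 0 in 5 of 5 with a median of 0.07 and a list mean of -0.18 to 0.25. Epidermis genes were above 0 in 3 of 4, with a median of 0.03 and a list mean of -0.06 to 0.19, and vascular genes in 1 of 4, with a median of -0.06 and a list mean of -0.22 to 0.12. On SAM3, leaf primordium genes were above 0 in 6 of 7 with a median of 0.12, green leaf genes in 2 of 3 with 0.01, epidermis genes in 3 of 3 with 0.09 and vascular genes in 1 of 2 with -0.05. Their part in the grp1 values was not tested.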

How the data were processed

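The intensity values used are each spot's signal and its local background in either dye, as the authors deposited them, neither corrected nor normalized, per the file headers. The deposited processed values are natural log (ln) ratios by a method not given in the sources used here. Their base was read from the slope of processed values on the natural log of signal (median 0.969 on SAM1 and 1 on SAM3), and they run as non-mutant over rgd2-R; they served as an alternative, sign turned. Signal was corrected with normexp (offset 50), normalized by loess and averaged over 3 readings, and a limma model with dye and genotype terms (4 residual degrees of freedom) was fitted per array over all spots with Benjamini-Hochberg adjustment, two-sided (limma 3.58.1, R 4.3.3). On simulated ratios 95% of 2-fold changes were recovered on each array. That share holds for the simulated ratios alone. It does not say how often a 2-fold change in grp1 would have been called in these data. The real SAM3 replicates correlated at only -0.54 to 0.32 over all spots.

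Probes were named through the platform annotation and gene identifiers of the Zm-B73-REFERENCE-NAM-5.0 gene table. On SAM1, 1800 probes had 1 gene and 23 several, for 583 genes, 562 of them in that table; on SAM3 the numbers were 1159, 1, 598 and 580. The named genes are all grp1 probes, the glycine-rich, RNA-binding and abscisic acid lists, the 5 genes most correlated with grp1 on SAM1, and cell type markers. Members and lists were chosen with earlier results of these data known. No sequences or coordinates are given, since no genome or probe sequence was used here. The number of arrays limits the precision. Alternatives changed the background correction, normalization, readings, dim spots, dye term, saturated readings, the summary over probes and the replicates used.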

Additional observations from a re-analysis of the deposited data

Results flagged for a closer look

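Of 35 sets of 6 replicate values (33 probes and 2 gene means), 1 held a replicate far from the rest by Dixon's test; chance alone flags about 1 set in 20. On SAM3, probe 13457 gave -0.81 in replicate 6, where the other 5 replicates ran from -0.25 to 0.05. The gap was 0.652 of the whole range.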

How the results depend on the processing

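On SAM1 the mean over grp1 probes stayed within -0.07 to 0.04 over the settings run and within -0.06 to 0.04 with each replicate left out in turn, so its sign is not fixed. The number of probes below 0 was 10 to 14 of 28. Of the 28 probes, 19 kept their sign in every setting run, among them 13699 (-1.08 to -0.80), 15880 (-0.78 to -0.44), 8426 (-0.51 to -0.29) and 12128 (-0.44 to -0.23). The dimmest probe, 16453, gave -0.55 (SE 0.43) with plain background subtraction, beyond its spread between replicates. Agreement between SAM1 probes ran from 0.30 in the high reading alone to 0.68 with median centring, and was 0.47 with Spearman's in place of Pearson's correlation. On SAM3 all 5 probes were below 0 and 0 passed in every setting run; the gene mean ran from -0.41 to -0.16 with each replicate left out. With all 18 readings entered and the replicate block as a random effect, the gene mean was -0.02 on SAM1 and -0.31 on SAM3 (limma adjusted p = 0.313). Precision is limited by 6 replicates, by signal near the scanner's ceiling for the brightest probes and near background for the dimmest, and on SAM3 by the unsettled direction of replicate 3.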

Other observations

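EF1-A, the other gene with widely spread probes, ran the opposite way from grp1 at its far end. Its 24 SAM1 probes ran from -0.08 to 0.90, with 8 below 0, and its 14 SAM3 probes from -0.09 to 0.74, with 2 below 0. Among the grp1 probes of SAM1, 8508, 9325, 2548 and 6818 formed the most closely correlated set, with pairs at 0.94 to 0.98 over the 6 replicates, and their ratios still ran from 0.04 for 8508 to 0.31 for 9325. Probes 3339 and 10595 also ran together at 0.96, with ratios of -0.05 and -0.18.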
